A study of Mus musculus with 6 samples.

Results

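Tetraspanins are small membrane proteins that cross the lipid bilayer several times and gather integrins, immunoglobulin-like proteins and proteases into shared patches of the cell surface. In cells of the macrophage lineage they take part in adhesion, endosomal sorting, antigen presentation and the fusion of precursors into multinucleated cells such as osteoclasts, and CD9 and CD81 are the members best known for a role in that fusion. A subgroup called TspanC8 escorts the protease ADAM10 to the cell surface. The members described here are all genes whose symbol is Tspan with a number, together with *Cd9*, *Cd37*, *Cd53*, *Cd63*, *Cd81*, *Cd82* and *Cd151*, where an array probe set carries that symbol alone. There were 26 of them among the 19938 genes with such a probe set, and each was read by 1 probe set. Membership followed this rule on symbols, but the members were chosen with earlier results of these data known. *Tspan7* was not analysed here.

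The samples were bone marrow-derived macrophages (BMMs), grown from the tibial marrow of mice 9 weeks old, according to the labels, with M-CSF, the growth factor of macrophages. RANKL, the cytokine that turns them into osteoclasts, was then given to all BMMs at 50 ng/ml for 24 h, with M-CSF at 100 ng/ml. The 3 vehicle control samples had RANKL alone and the 3 treated samples also had 100 ng/ml rGDF11, a recombinant ligand of the TGF-β superfamily, which addresses what GDF11 adds to the response to RANKL. The labels call the samples biological replicates without saying whether each was a different mouse or culture. The p-values set a difference against the spread of these samples only. Affymetrix Mouse Gene 1.0 ST arrays gave 1 log2 value per probe set after robust multichip averaging (RMA), and "rose" and "fell" are used of genes whose adjusted p in limma, over all probe sets with a symbol, was under 0.05. Differences are log2 values with rGDF11 minus log2 values with RANKL alone. Arrays of one group correlated at 0.997 to 0.998 across probe sets and arrays of different groups at 0.989 to 0.991. Of 7 macrophage markers *Csf1r*, *Lyz2* and *Mertk* did not pass, with mean log2 values of 12.08, 13.04 and 8.18. *Fcgr1*, *Adgre1*, *Cd68* and *Itgam* fell, with differences of −1.41, −0.51, −0.28 and −0.24. Of 7 osteoclast genes 6 rose with rGDF11. The calcitonin receptor *Calcr*, a late gene, did not pass and had a mean log2 value of 4.21. Among all genes 9.13% fell and 7.49% rose.

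Of the 26 tetraspanins, 5 fell with rGDF11, 2 rose and 19 did not pass the test. *Tspan13*, *Tspan17*, *Tspan32*, *Cd37* and *Cd53* were the members that fell, by 2.29-fold down to 1.26-fold, and *Tspan6* and *Tspan18* were those that rose, by 1.59-fold and 1.26-fold. In a bulk sample, fewer cells that express a gene and less of its RNA per cell cannot be told apart. Among all 19938 genes 9.13% fell and 7.49% rose, so the share of members that fell, 19.2%, stood above the background, whereas the share that rose, 7.69%, stood close to it. The median difference over the members was 0.02 on the log2 scale, beside 0.03 over all genes. At the methods' threshold of a 1.5-fold change with an unadjusted p under 0.01, *Tspan13* and *Tspan17* were lower (background 3.06%) and *Tspan6* was higher (background 2.13%). The 2 groups of arrays did not overlap for 15 members, or 57.7%, against 33.7% of all genes.

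All 5 members that fell were among the 16 with a mean log2 value above the median of all genes, and both that rose were among the 10 at or below it. Among genes above the median 16.2% fell and 12.5% rose, beside 31.25% and 0% of the members there. Among genes at or below it 2.07% fell and 2.52% rose, beside 0% and 20% of the members there. *Tspan6* and *Tspan18* therefore changed in a range of low values, and the table holds no detection calls that would tell such values from background. Overlap also went with level. Groups did not overlap for 53.7% of all genes above the median and 13.7% at or below it, and for 75% and 30% of the members.

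The stretches of DNA just before the starts of the 5 falling genes are shown because they differ in a feature that the choice of members did not use, the number of CpG pairs. Each run holds the 250 bases upstream of the RefSeq transcript start (build GRCm38.p6), 5′ to 3′ on the strand of the gene, with CpG pairs in capitals. The interval is chr12:36042479-36042728 (minus strand) for *Tspan13*, chr13:54789155-54789404 (plus strand) for *Tspan17*, chr7:143004796-143005045 (plus strand) for *Tspan32*, chr7:45238840-45239089 (minus strand) for *Cd37* and chr3:106790150-106790399 (minus strand) for *Cd53*.
*Tspan13*: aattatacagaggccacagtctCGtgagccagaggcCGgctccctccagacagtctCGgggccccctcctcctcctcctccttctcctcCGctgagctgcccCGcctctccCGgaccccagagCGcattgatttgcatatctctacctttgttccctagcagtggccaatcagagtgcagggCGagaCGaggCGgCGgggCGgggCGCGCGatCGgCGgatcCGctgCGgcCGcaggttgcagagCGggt
*Tspan17*: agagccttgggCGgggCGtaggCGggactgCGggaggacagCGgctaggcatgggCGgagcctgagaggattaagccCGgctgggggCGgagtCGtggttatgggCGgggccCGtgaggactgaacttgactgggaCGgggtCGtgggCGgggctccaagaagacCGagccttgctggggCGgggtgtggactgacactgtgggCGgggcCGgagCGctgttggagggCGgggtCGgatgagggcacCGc
*Tspan32*: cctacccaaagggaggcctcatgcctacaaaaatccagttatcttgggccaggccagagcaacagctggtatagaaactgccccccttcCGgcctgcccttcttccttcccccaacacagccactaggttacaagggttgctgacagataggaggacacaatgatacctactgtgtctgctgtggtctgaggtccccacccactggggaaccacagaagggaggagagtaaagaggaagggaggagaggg
*Cd37*: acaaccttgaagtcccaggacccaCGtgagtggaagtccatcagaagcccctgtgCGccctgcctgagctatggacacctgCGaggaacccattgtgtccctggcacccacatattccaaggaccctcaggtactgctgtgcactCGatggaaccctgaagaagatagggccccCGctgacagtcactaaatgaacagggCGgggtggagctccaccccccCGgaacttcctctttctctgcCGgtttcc
*Cd53*: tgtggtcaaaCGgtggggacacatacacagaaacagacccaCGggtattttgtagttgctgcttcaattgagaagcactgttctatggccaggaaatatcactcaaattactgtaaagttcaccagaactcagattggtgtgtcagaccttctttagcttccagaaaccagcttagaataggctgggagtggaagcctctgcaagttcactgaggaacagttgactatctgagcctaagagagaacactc
*Tspan13* and *Tspan17* had 21 and 22 CpG pairs in this window, and *Cd37*, *Cd53* and *Tspan32* had 8, 2 and 1. Expression of the latter genes is largely restricted to blood cells, but a link to CpG number was not tested. Over 32851 RefSeq promoter windows of the same length the median was 6, with a 10th percentile of 1 and a 90th of 25. The 29 windows of 19 tetraspanins that did not pass had a median of 11 and ran from 1 to 33, so the numbers of the falling members lie within that range. The *Tspan6* window held 5, and no window of *Tspan18* was used. Both strands were searched for the AP-1 site TGANTCA, the PU.1 site GAGGAAGT, the SMAD palindrome GTCTAGAC, the interferon response element (GAAA, any 2 bases, GAAA) and the E-box CACGTG, which 6.75%, 2.44%, 0.167%, 2.98% and 6.02% of all windows hold. Of the 5 windows printed, the one of *Cd37* held a PU.1 site at position −25 and an E-box at −228, counted from the transcript start, and these letters were not in the other 4 windows.

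*Tspan13*, also known as NET-6, had the largest change of the family. Its log2 values were 8.55, 8.57 and 8.40 with RANKL alone and 7.32, 7.43 and 7.19 with rGDF11. Each array with rGDF11 lay at least 0.97 below each array without it. The means were 8.51 ± 0.09 and 7.31 ± 0.12 (SD, n = 3 arrays per group), a fall of 2.29-fold (log2 difference −1.19, standard error 0.08; limma, adjusted p = 7.87e-05). For this gene and for every other one whose groups did not overlap, an exact permutation test over the arrays gave a two-sided p of 0.1, the smallest that 3 arrays against 3 allow.

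*Tspan17* belongs to the TspanC8 subgroup that carries ADAM10. It read 8.37, 8.33 and 8.31 with RANKL alone and 7.67, 7.68 and 7.68 with rGDF11, so the spread within each group was small beside the gap of 0.63 between them. The fall was 1.58-fold (log2 difference −0.66, standard error 0.06; limma, adjusted p = 0.000204). It was the one TspanC8 member that passed. The other 5 had differences from −0.06 for *Tspan10*, a gene known from the pigmented eye, to 0.26 for *Tspan33*, which is known from erythroid and activated B cells.

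**Figure D1:**
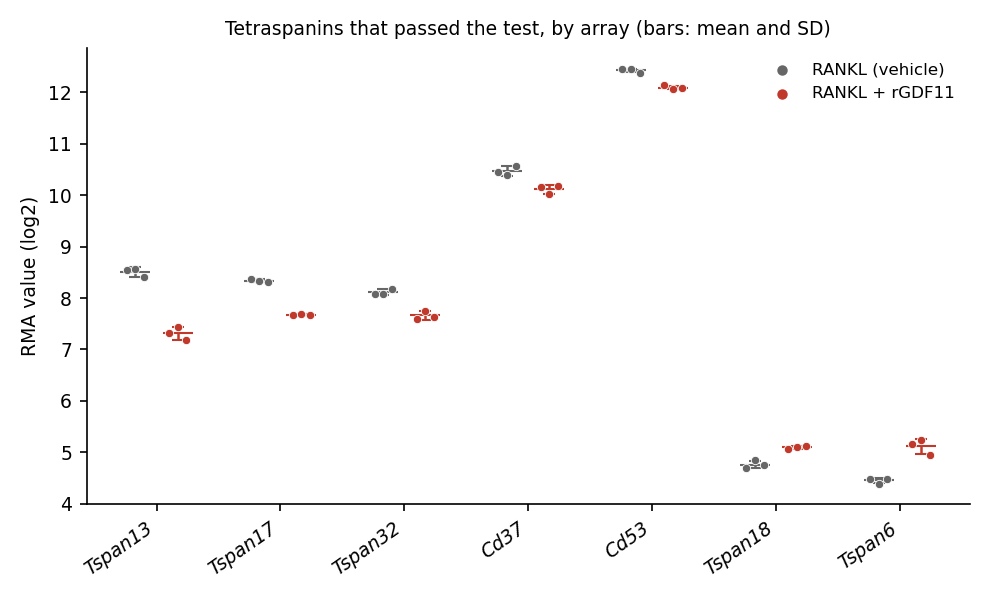
RMA values (log2, vertical axis) of the 7 tetraspanins that passed at an adjusted p under 0.05, in BMMs given RANKL alone (grey) or with rGDF11 (red) for 24 h. Each point is an array, with the mean and SD of 3 arrays as bars. All 7 genes have separate groups, and *Tspan13* moves furthest, from 8.51 to 7.31, while *Tspan18* and *Tspan6* lie near 5.

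*Tspan5* and *Tspan14*, both escorts of ADAM10, lay on the other side of 0. *Tspan5* read 8.60, 8.60 and 8.65 with RANKL alone and 8.76, 8.92 and 8.81 with rGDF11, and *Tspan14* read 11.18, 11.05 and 11.10 against 11.26, 11.27 and 11.31. In both genes every array with rGDF11 was the higher, yet neither passed after adjustment, with differences of 0.22 (95% interval 0.06 to 0.37; adjusted p = 0.07 in limma) and 0.17 (0.02 to 0.31; adjusted p = 0.124). *Tspan15*, the member that directs ADAM10 to N-cadherin, had a difference of 0.07 (−0.19 to 0.33) at a mean log2 value of 4.81. *Adam10* itself read 10.58 ± 0.06 with RANKL alone and 10.60 ± 0.01 with rGDF11 (SD, n = 3), and the 95% interval of its difference, −0.12 to 0.16, leaves room for a change of at most 1.12-fold. The related sheddase gene *Adam17* differed by −0.09 (−0.23 to 0.05), and the ADAM10 substrates *Notch1* (0.03) and *Notch2* (−0.09) did not pass either.

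Among the 7 members with CD names, *Cd37* and *Cd53* fell and 5 did not pass. Both are tetraspanins of leukocytes. *Cd53* read 12.45, 12.45 and 12.38 with RANKL alone and 12.13, 12.06 and 12.09 with rGDF11, a fall of 1.26-fold (log2 difference −0.33, standard error 0.06; adjusted p = 0.00771 from limma). The groups were 0.25 apart at their nearest arrays. *Cd37*, which steadies the fungal receptor Dectin-1 at the macrophage surface, read 10.45, 10.39 and 10.57 against 10.15, 10.02 and 10.18, a fall of 1.28-fold (−0.35, standard error 0.08; adjusted p = 0.0183 from limma). The call on *Cd37* was lost without the third vehicle array (adjusted p = 0.0680), without the first rGDF11 array (0.0517), without the second (0.0553) and with the methods' t-test (0.0623), while the difference stayed between −0.39 and −0.30 over the 16 alternatives that refitted it. *Tspan32*, another member found mainly in blood cells, read 8.09, 8.09 and 8.19 with RANKL alone and 7.59, 7.76 and 7.64 with rGDF11. It fell by 1.37-fold (log2 difference −0.46, standard error 0.07; limma, adjusted p = 0.00382).

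These falls stood beside changes in several marker lists, where 9.13% of all genes fell. Of 4 measured B cell markers 1 fell, the signalling chain *Cd79b* (log2 difference −1.19, from 7.61 to 6.42). The defining *Ms4a1*, *Cd79a* and *Pax5* had mean log2 values of 3.47, 3.93 and 4.95. Their differences of 0.14, 0.17 and −0.01 did not pass. The summed level of the 4, as a log2 value, was 7.87 to 8.04 in the vehicle arrays and 7.03 to 7.27 in the rGDF11 arrays. The median of the 4 was 4.37 to 4.43 against 4.39 to 4.53. Of 7 macrophage markers 4 fell, *Fcgr1* the most (−1.41), with summed levels of 14.70 to 14.72 against 14.45 to 14.52. Of 4 platelet markers 2 fell, the chemokines *Pf4* and *Ppbp*, with summed levels of 10.07 to 10.20 against 9.30 to 9.51. Of 4 T cell markers and 4 mast cell markers, 4 and 4 did not pass. The part of these changes in the falls of *Cd37*, *Cd53* and *Tspan32* was not tested.

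The members best known from cell fusion and from endosomes did not pass. *Cd9* read 10.00, 10.10 and 10.11 with RANKL alone and 9.87, 9.95 and 9.95 with rGDF11, so its groups were only 0.05 apart (log2 difference −0.15, 95% interval −0.30 to 0.0013; limma, adjusted p = 0.187). *Cd81*, its close relative, went the other way, with 11.91, 11.90 and 11.91 against 12.06, 12.01 and 12.13 (0.16, 95% interval 0.02 to 0.30; limma, adjusted p = 0.128). Neither passed, and their intervals leave room for a fall of *Cd9* to 0.815 times its level without rGDF11 and a rise of *Cd81* to 1.23 times. *Cd63*, the tetraspanin of late endosomes and lysosomes, read 11.37, 11.45 and 11.40 against 11.47, 11.38 and 11.57, with overlapping groups (0.07, −0.09 to 0.23). *Cd82*, known for restraining cell movement, read 11.43, 11.38 and 11.47 against 11.27, 11.20 and 11.37, and the groups came within 0.01 of each other (−0.14, −0.30 to 0.01). *Cd151*, the partner of laminin-binding integrins, had overlapping groups and a difference of −0.19 (−0.38 to 0.01).

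**Figure D2:**
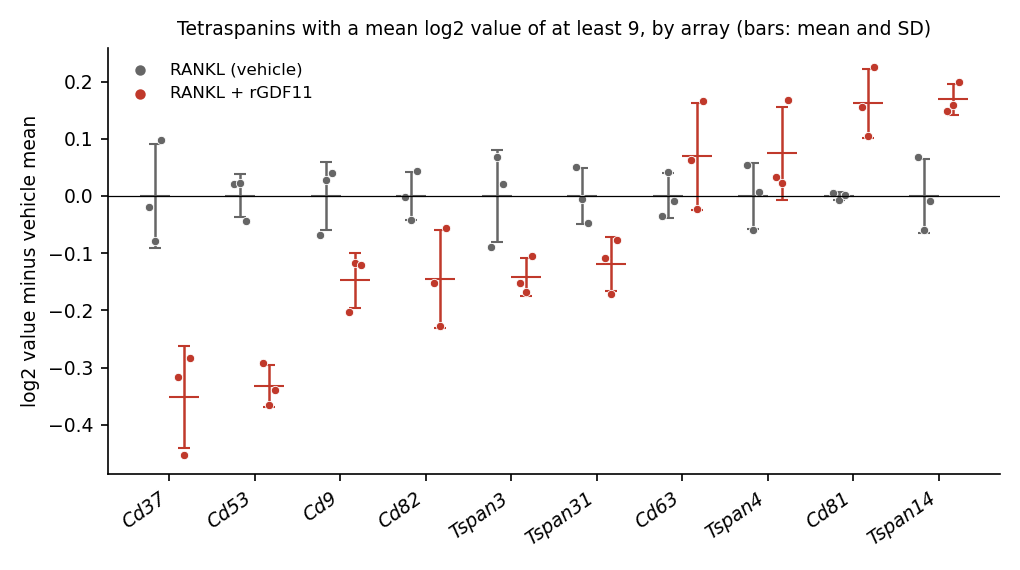
Log2 value of each array minus the mean of the vehicle arrays (vertical axis) for the 10 tetraspanins with a mean log2 value of at least 9, given RANKL alone (grey) or with rGDF11 (red). Each point is an array, with the mean and SD of 3 arrays as bars. The means of *Cd37* and *Cd53* lie near −0.35 and −0.33 with rGDF11, and the means of the other 8 lie within 0.17 of 0.

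Among the 13 Tspan genes outside the TspanC8 subgroup, *Tspan13* and *Tspan32* fell, *Tspan6* and *Tspan18* rose and 9 did not pass. *Tspan6*, a member linked to the making of exosomes, read 4.48, 4.39 and 4.49 with RANKL alone and 5.16, 5.25 and 4.96 with rGDF11 (log2 difference 0.67, standard error 0.09; adjusted p = 0.00151 from limma). *Tspan18*, which helps the calcium channel subunit Orai1 to reach the surface, read 4.70, 4.84 and 4.75 against 5.07, 5.10 and 5.12 (0.33, standard error 0.06; adjusted p = 0.0109 from limma). In both, the groups stood apart, by 0.47 and 0.23. Of 5 fibroblast markers the collagens *Col1a1* and *Col1a2* rose, where 7.49% of all genes rose. The summed level of that list was 8.49 to 8.73 against 8.92 to 9.22. *Col3a1*, *Pdgfra* and *Dcn* did not pass, with mean log2 values of 6.36, 5.67 and 4.38 and differences of 0.20, −0.15 and −0.26. Of 5 endothelial markers *Pecam1* rose and *Kdr* fell, with summed levels of 7.63 to 7.65 against 7.53 to 7.57. Of 6 neutrophil markers *Ngp* and *S100a8* rose, with summed levels of 9.39 to 9.62 against 10.01 to 10.25, and of 4 dendritic cell markers *Flt3* rose. The part of these changes in the rises of *Tspan6* and *Tspan18* was not tested.

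The other 9 had small differences. *Tspan4*, the tetraspanin of migrasomes, read 10.51, 10.39 and 10.46 against 10.49, 10.47 and 10.62 with rGDF11, with overlapping groups. *Tspan31* read 11.72, 11.67 and 11.62 against 11.56, 11.50 and 11.59, and *Tspan3* read 9.74, 9.89 and 9.85 against 9.67, 9.66 and 9.72. The groups of these last genes were separate by 0.03 and 0.02, with differences of −0.12 (limma, adjusted p = 0.277) and −0.14 (adjusted p = 0.220). *Tspan9*, known from platelets, *Tspan11* and the oligodendrocyte gene *Tspan2* had differences of 0.14, 0.15 and 0.14 with overlapping groups. *Tspan1*, *Tspan8*, which is known from epithelia and their tumours, and *Tspan12*, a co-receptor component of Norrin signalling, had mean log2 values of 4.33, 3.30 and 4.27 and differences from −0.13 to 0.05.

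**Figure D3:**
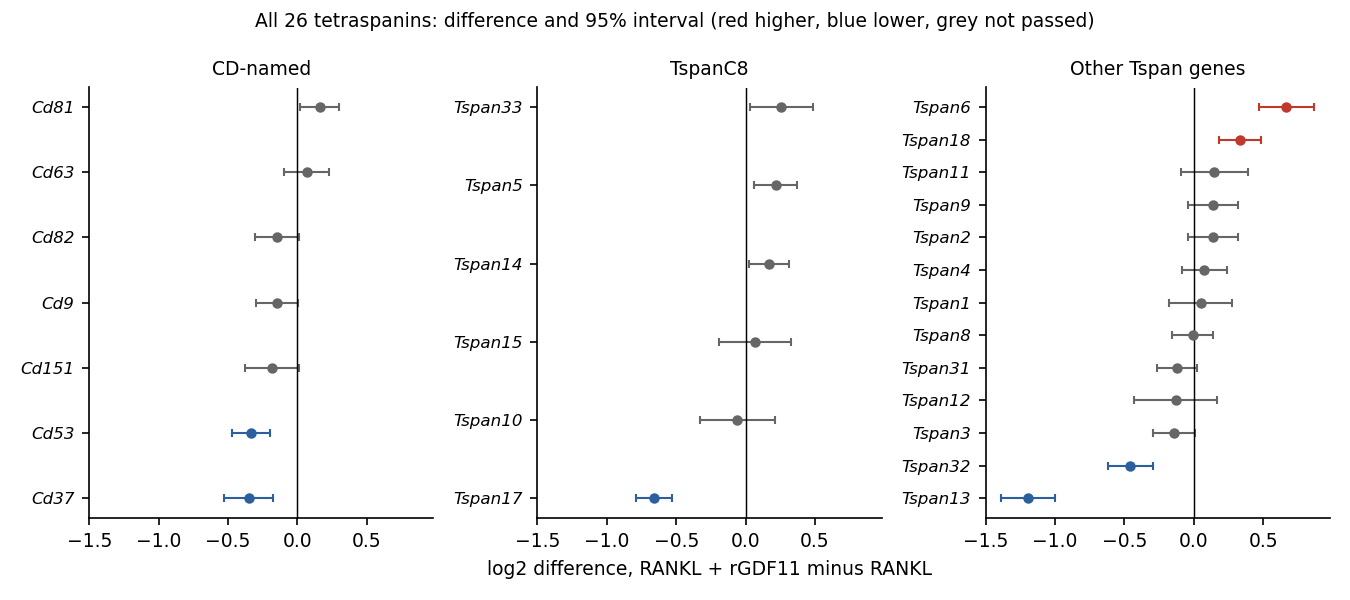
Log2 difference (RANKL + rGDF11 minus RANKL, horizontal axis) of all 26 tetraspanins, with 95% intervals from limma and 3 arrays per group. The 3 panels hold CD-named members, TspanC8 members and the other Tspan genes. Blue points fell and red points rose at an adjusted p under 0.05; 5 lie to the left in blue, from −0.33 to −1.19, and 2 lie to the right in red.

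Several members lie next to each other in the genome. In the RefSeq annotation 4 pairs of members had at most 1 protein-coding gene between them. *Tspan32* and *Cd81* are neighbours on chromosome 7. The within-array difference *Tspan32* minus *Cd81* fell by 0.62 with rGDF11, and its groups did not overlap (exact permutation test, two-sided p = 0.1, adjusted p = 0.2 over 4 pairs). *Tspan18* and *Cd82* are neighbours on chromosome 2. The within-array difference *Tspan18* minus *Cd82* went up by 0.48, again without overlap (exact permutation p = 0.1, adjusted p = 0.2). The values moved closer together, as mean *Tspan18* went from 4.76 to 5.10 and mean *Cd82* from 11.43 to 11.28 with rGDF11. The groups overlapped for *Cd151* against *Tspan4* on chromosome 7 (change of the difference −0.26; exact permutation p = 0.2) and for *Tspan11* against *Tspan9* on chromosome 6 (0.01; exact permutation p = 1). With 3 arrays per group none of these tests could reach 0.05.

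Genes whose proteins bind tetraspanins or act on them changed in both directions. Of 37 measured partners and regulators, 10 rose (27.0%), 5 fell (13.5%) and 22 did not pass, beside 7.49% and 9.13% of all genes. The list was written from background knowledge, but with earlier results of these data known. Among all genes above the median level 12.5% rose and 16.2% fell, and at or below it 2.52% and 2.07%. The partner list was not split by level. The count that rose was 6 without the first vehicle array, 6 without the first rGDF11 array and 5 with the methods' t-test. At the methods' threshold 4 were higher and 2 lower, where 2.13% of all genes were higher and 3.06% lower. The median difference over the list was −0.01.

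Of 4 genes for a family of immunoglobulin-like proteins, some of which bind CD9 and CD81 directly, 3 rose, where 7.49% of all genes rose. These 4 were taken out of the partner list and were not a list of their own. *Ptgfrn*, which encodes CD9P-1, read 5.81, 5.73 and 5.55 with RANKL alone and 7.11, 7.07 and 6.96 with rGDF11, a rise of 2.56-fold (log2 difference 1.35, standard error 0.09; limma, adjusted p = 5.10e-05). Its relative *Igsf3* rose 1.65-fold (limma, adjusted p = 0.00569) and *Igsf8*, which encodes EWI-2, rose 1.22-fold (limma, adjusted p = 0.0346). *Cd101*, the other measured gene of this family, had a difference of 0.25 and did not pass (limma, adjusted p = 0.0782).

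Adhesion partners went both ways. *Itga6*, the laminin-binding integrin subunit that pairs with CD151, read 10.80, 10.97 and 10.98 with RANKL alone and 11.28, 11.31 and 11.18 with rGDF11 (log2 difference 0.34; limma, adjusted p = 0.0183). *Itga4* read 10.57, 10.54 and 10.46 against 10.11, 10.13 and 10.15 (−0.39; limma, adjusted p = 0.00397). The groups were separate in both, in opposite directions. Their common partner chain *Itgb1* did not pass (−0.13, 95% interval −0.30 to 0.04), and *Itga3*, *Itga7* and *Itgb4* had mean log2 values of 5.06, 5.15 and 5.67 and differences of −0.08, −0.09 and −0.0024. The adhesion receptor *Cd44* rose by 0.23.

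*Cldn1*, a tight junction protein that associates with CD9 and CD81, had the largest change of the list, from 4.48, 4.83 and 4.54 to 6.89, 7.14 and 7.13, or 5.41-fold (limma, adjusted p = 1.44e-05). The growth factor receptor *Met* rose 2.66-fold, from a mean log2 value of 6.53 to 7.95. *Timp1*, a ligand of CD63, and *Hbegf*, a growth factor whose precursor binds CD9, rose by 0.56 and 0.47 on the log2 scale, and *Lrp5*, a receptor in the TSPAN12 complex, by 0.30. Of the genes that fell, *Zdhhc2*, which attaches palmitate to CD9 and CD151, read 6.06, 6.64 and 6.10 against 5.50, 5.69 and 5.51 (−0.70, standard error 0.15; limma, adjusted p = 0.0187). *Pi4k2a*, a lipid kinase found in tetraspanin complexes, fell by 0.59, the antiviral membrane protein *Ifitm3* by 0.42 and *Clec7a*, which encodes Dectin-1, by 0.41. The syntenin gene *Sdcbp*, *Pdcd6ip* and *Tsg101*, which serve exosome formation with tetraspanins, had differences of −0.15, −0.08 and −0.03 and did not pass.

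**Figure D4:**
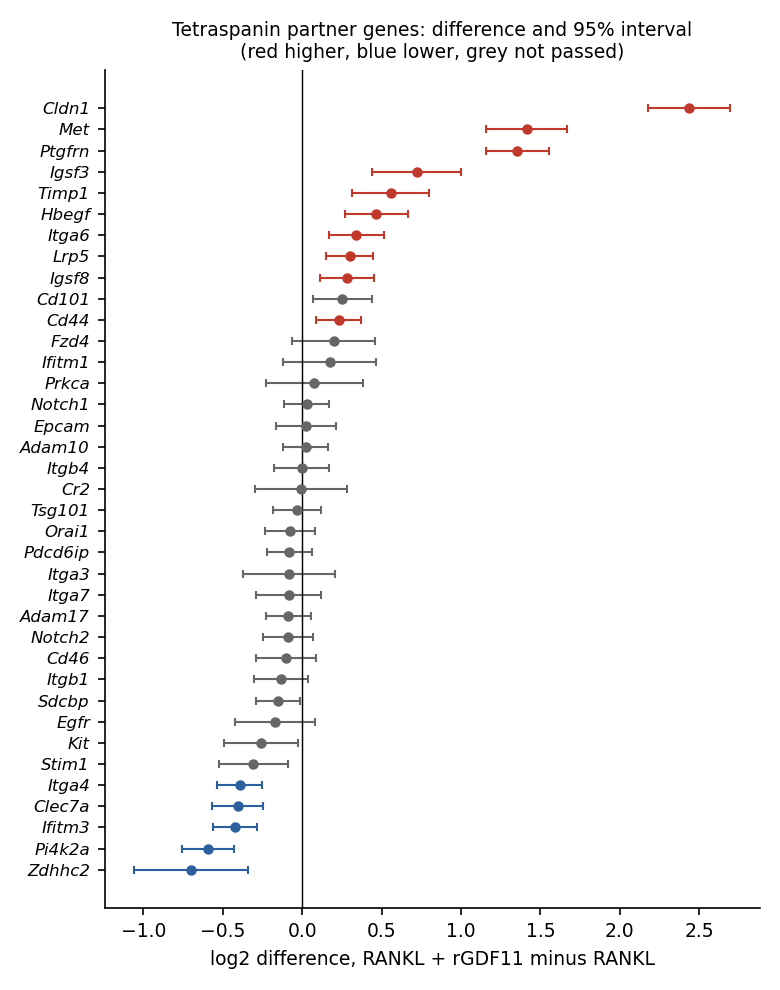
Log2 difference (RANKL + rGDF11 minus RANKL, horizontal axis) of 37 tetraspanin partners and regulators, with 95% intervals from limma and 3 arrays per group. Red points rose and blue points fell at an adjusted p under 0.05; *Cldn1*, at 2.44, *Met* and *Ptgfrn* lie furthest to the right, and *Zdhhc2*, at −0.70, furthest to the left.

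The L6 proteins resemble tetraspanins in outline but form a separate family. Of 5 measured, *Tm4sf1* rose 2.30-fold, from 7.57, 7.19 and 7.30 to 8.46, 8.50 and 8.70 (limma, adjusted p = 0.000306), and 4 did not pass. Among all genes 7.49% rose. *Tm4sf19*, an L6 gene known from osteoclasts, read 8.76, 8.69 and 8.73 against 8.62, 8.59 and 8.64 (−0.10, 95% interval −0.24 to 0.03). *Upk1a*, *Upk1b*, *Prph2* and *Rom1*, tetraspanin relatives of the bladder lining and the retina, had mean log2 values of 4.92 to 5.73 and differences from −0.13 to 0.08 that did not pass (limma, lowest adjusted p = 0.420).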

How the data were processed

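Total RNA of 6 samples, 3 vehicle and 3 rGDF11, was measured on Mouse Gene 1.0 ST arrays of Affymetrix. The deposited values are log2 levels that the authors obtained with RMA. The software named is Expression Console together with, also in the submitters' processing notes, Transcriptome Analysis Console 3.0. Background correction, normalization across arrays and summary into probe sets are thus already in the values. Bright array values can be compressed, which was not measured here. Of 35556 probe sets, 21789 were paired with 1 symbol by the platform annotation, 1621 with several and 12146 with none. The brightest probe set stood for a gene, and Entrez identifiers left all 26 member symbols as they were in GRCm38.p6. The 23410 probe sets with a symbol entered 1 two-sided linear model fit (limma 3.58.1, R 4.3.3) with moderated variances, no intensity trend and Benjamini-Hochberg adjustment. The fit was tested on simulated data. The number of arrays limits the precision.

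The members, gene lists and tests were chosen with earlier results of these data known. All members are named, with values per array for those with an adjusted p under 0.05 or a mean log2 value of at least 9, and from the partner, L6 and superfamily lists those that passed, with *Adam10*, *Itgb1*, *Igsf8* and *Ptgfrn* whatever their p. Further genes and per-array values were added after their values were seen. Promoter sequences are those of RefSeq, which held windows for 25 of the 26 members. The alternatives changed the set of rows, the filter on low values, the scaling (median centring or quantiles), the variance model, the test (the methods' t-test), the threshold, the use of replicate numbers as blocks and the probe sets averaged per gene, and also dropped every array once.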

Additional observations from a re-analysis of the deposited data

How the results depend on the processing

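*Tspan13*, *Tspan17*, *Tspan32* and *Cd53* remained called in the 16 alternatives that kept the threshold of an adjusted p under 0.05, *Tspan6* and *Tspan18* in the 14 of these that tested them, and *Cd37* in 12 of the 16. At the methods' threshold *Tspan13*, *Tspan17* and *Tspan6* remained, and *Tspan32*, *Cd53*, *Cd37* and *Tspan18*, all under 1.5-fold, did not. The intensity trend called 5 members higher, adding *Tspan5*, *Tspan14* and *Cd81*, and added *Cd82* and *Tspan31* to those lower. These 3 higher members also passed the filter above the median level, where *Tspan6* and *Tspan18* were not tested. The filter at a mean log2 value of 5 also left those out and called 1 higher, *Tspan5*, which passed after quantile normalization too, and the methods' threshold gave 1 higher and 2 lower. Leaving out each array in turn gave 2 higher throughout and 4 to 5 lower. The members' median difference was −0.14 above the median level, −0.12 at a mean of at least 5, −0.0149 after quantile normalization and between −0.0405 and 0.0492 without single arrays. Differences near 0 changed sign when single arrays were left out, none of them called: *Tspan8* ranged from −0.0477 to 0.0154, *Tspan10* from −0.153 to 0.0654, *Tspan1* from −0.0275 to 0.116, *Tspan15* from −0.0334 to 0.142 and *Tspan12* from −0.227 to 0.0016. Partner genes higher were 5 by the methods' t-test, 4 at the methods' threshold (2 lower) and 6 to 9 without single arrays, 6 both without vehicle array 1 and without rGDF11 array 1. The filter above the median called 2 L6 genes higher. The cause of these moves was not tested. The share of all genes called was computed for the fit described above and at the methods' threshold only. Counts under the other alternatives, such as the intensity trend and the filters, therefore have no background beside them. With the replicate number as a block the counts were 2 members higher and 5 lower, with a median difference of 0.02, 8 partner genes higher and 5 lower, and 1 L6 gene higher, so no call on a count moved by over 1.5 times. Same-numbered arrays correlated at 0.06, 0.33 and −0.000832 in their deviations from the group means, and different-numbered ones at −0.32 to 0.27. The numbers were not taken to pair the samples, although 0.33 was the highest of these correlations.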
